A study of Mus musculus with 20 samples.

Results

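The Slc22 family holds the membrane carriers for organic anions, organic cations, carnitine and urate, and 9 of its genes are described here in mouse kidney RNA, namely Slc22a2, Slc22a4, Slc22a5, Slc22a6, Slc22a7, Slc22a8, Slc22a12, Slc22a13 and Slc22a18. They were chosen by symbol from the 25 Slc22 genes of the count table, and 9 of 9 passed the filter on low counts. The kidneys came from 20 male mice of 129SJ x C57Bl/6J background, killed at 15 weeks of age. The WT group (5 mice) carried intact Col4a3 and was left untreated. The other 3 groups were Col4a3-/- F1 mice, which lack the α3 chain of type IV collagen in every cell and serve as a model of Alport syndrome. Treatment began at 5 weeks of age. Of the knockout mice 6 (Veh) received PBS under the skin every week, 6 (anti-miR-21) received lademirsen, an oligonucleotide inhibitor of the microRNA miR-21, at 50 mg/kg on the same schedule, and 3 (ACEi) drank water with the ACE inhibitor ramipril at 11 mg/L and also had PBS injections. The comparison of Veh with WT therefore covers the genotype and the PBS injections together.

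Cells of the proximal tubule take up drugs, toxins and metabolites from blood through Slc22 carriers in their basolateral membrane and release them into urine through other carriers in the apical membrane. Slc22a6 (OAT1), Slc22a8 (OAT3) and Slc22a7 (OAT2) carry organic anions, Slc22a2 (OCT2) carries organic cations, Slc22a4 (OCTN1) carries zwitterions such as ergothioneine and Slc22a5 (OCTN2) carries carnitine. Slc22a12 (URAT1) and Slc22a13 (OAT10) exchange urate and other anions across the apical membrane, and Slc22a18 is an imprinted member whose substrates are less well known.

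By the GENCODE annotation of GRCm38, Slc22a8 (chr19:8591254-8611835, plus strand) and Slc22a6 (chr19:8618039-8628299, plus strand) lie 6203 bases apart, and Slc22a12 lies on the same chromosome (chr19:6535845-6543032, minus strand). Slc22a5 (chr11:53864542-53891660, minus strand) and Slc22a4 (chr11:53983123-54028090, minus strand) lie 91462 bases apart with Slc22a21 between them. Slc22a2 (chr17:12584132-12628488, plus strand) and Slc22a7 (chr17:46432183-46438457, minus strand) share chromosome 17, Slc22a13 (chr9:119192974-119209098, minus strand) lies within the span of Slc22a14, and Slc22a18 is at chr7:143473736-143499334 (plus strand). Exons of Slc22a12 overlap 682 bases of exons of Nrxn2 on the opposite strand. Whether the counting used strand is not given in the sources used here, so reads of these 2 genes may not be fully told apart.

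Promoter windows of RefSeq (GRCm38.p6, 250 bases before and 50 after the start) matched 8 of the 9 genes, all but Slc22a7, and starts are those of RefSeq. They are shown as a description of sequence, and whether their composition relates to the change of the members was not tested. The 150 bases before the start are printed 5′ to 3′ on the gene's strand for the neighbours Slc22a6 (chr19:8617846-8617995) and Slc22a8 (chr19:8593032-8593181) and for the neighbours Slc22a4 (chr11:54028105-54028254) and Slc22a5 (chr11:53891704-53891853). Capitals mark the GC box, GGGCGG or its reverse complement CCGCCC, which the stretches of Slc22a6 and Slc22a8 do not hold.
Slc22a6: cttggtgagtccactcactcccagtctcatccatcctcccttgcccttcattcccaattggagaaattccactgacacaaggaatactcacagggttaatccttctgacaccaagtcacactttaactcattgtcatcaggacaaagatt
Slc22a8: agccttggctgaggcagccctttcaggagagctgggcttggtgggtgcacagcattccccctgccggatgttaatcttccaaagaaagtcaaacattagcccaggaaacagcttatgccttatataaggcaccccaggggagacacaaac
Slc22a4: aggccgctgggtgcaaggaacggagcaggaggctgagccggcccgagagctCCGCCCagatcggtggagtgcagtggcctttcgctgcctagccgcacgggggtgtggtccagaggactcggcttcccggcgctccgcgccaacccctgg
Slc22a5: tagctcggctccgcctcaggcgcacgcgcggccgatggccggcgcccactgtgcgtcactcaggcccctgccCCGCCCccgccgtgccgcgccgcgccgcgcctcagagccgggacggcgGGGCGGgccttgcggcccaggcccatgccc

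The windows of Slc22a5 and Slc22a4 held 34 and 29 CpG dinucleotides, against 8 in Slc22a2, 6 in Slc22a12, 2 in Slc22a6, 2 in Slc22a18, 1 in Slc22a8 and 0 in Slc22a13, and the median over 32851 windows of the same length was 7. The GC box, read on both strands as were the other letters searched, was found in 3 of 8 (Slc22a4, Slc22a5 and Slc22a12) and in 35.7% of all windows. TATAAA was found in 1 of 8 (Slc22a13) and in 13.6% of all windows, and CAAAGTCCA, letters of the HNF4 motif, in 0 of 8 and in 0.475% of all. These matches describe the letters of the windows and say nothing of binding.

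The microRNA that lademirsen inhibits is also shown, as sequence context for the treated groups. The mature mouse miR-21a-5p of RefSeq (GRCm38.p6, chr11:86584120-86584141, minus strand) follows with its seed, bases 2 to 8, in capitals, above the stretch of the Slc22a6 3′ UTR (GRCm38, chr19:8628029-8628051, plus strand, DNA letters) with the 7 bases complementary to that seed in capitals.
miR-21a-5p: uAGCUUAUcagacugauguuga
Slc22a6: ttcaagacagagacaATAAGCTt

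Among the longest annotated 3′ UTR of each member, 1 of 9 held the seed match, once, in the 2088 bases of Slc22a6. The same 7 bases occurred in 7.99% of 15301 tested genes with a 3′ UTR, whose median length was 1287 bases. The match is a description of the sequence and not a measured target site.

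The deposited counts summed to between 28474301 and 29479629 per library, and Col4a3, the disrupted gene, was at 216.6 ± 16.4 CPM (counts scaled to library size; mean ± SD, n = 5) in WT and 37.8 ± 7.63 (n = 6) in Veh, with no overlap of the 15 knockout mice with WT. Library sizes were adjusted with the TMM factors of edgeR. Fold changes are given as log2 ± standard error with p-values of edgeR's quasi-likelihood test adjusted over 17622 genes, and a gene was called at an adjusted p under 0.05. All 8 proximal tubule markers tested were present in every group, although the extraction text of the labels names adipose tissue. The sum of 5 adipocyte markers stayed between 0.394 and 120.3 CPM and that of the proximal tubule markers between 1867 and 18513 CPM.

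In Veh kidneys, 9 of 9 members were lower than in WT, with log2 fold changes from -5.33 to -1.74 and a median of -2.62. Of all genes tested 34% were called lower and 39% higher, and the median log2 fold change over all genes was 0.07. For 9 of 9 members the ranges of Veh and WT did not overlap, which held in the lower direction for 26.1% of all genes. Together the members took 0.626% ± 0.0358 (SD, n = 5) of all counts in WT and 0.136% ± 0.0610 (n = 6) in Veh. In whole kidney RNA, fewer proximal tubule cells and less RNA of a gene per cell cannot be told apart.

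Under anti-miR-21, 9 of 9 members were higher than in Veh, by 1.22 to 3.97 (log2 fold change, median 1.95), and under ACEi 9 of 9 were higher than in Veh, by 0.95 to 3.52 (median 1.70). Of all genes, 28.8% were called higher and 30.5% lower under anti-miR-21, with a median of -0.04, and 21% higher and 19.1% lower under ACEi, with a median of -0.05. No member of either treated group overlapped Veh, where 18.6% of all genes lay wholly above Veh under anti-miR-21 and 19.8% under ACEi. Both comparisons use the same Veh mice. The members took 0.469% ± 0.0662 of all counts under anti-miR-21 (n = 6) and 0.429% ± 0.0418 under ACEi (n = 3).

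**Figure D1:**
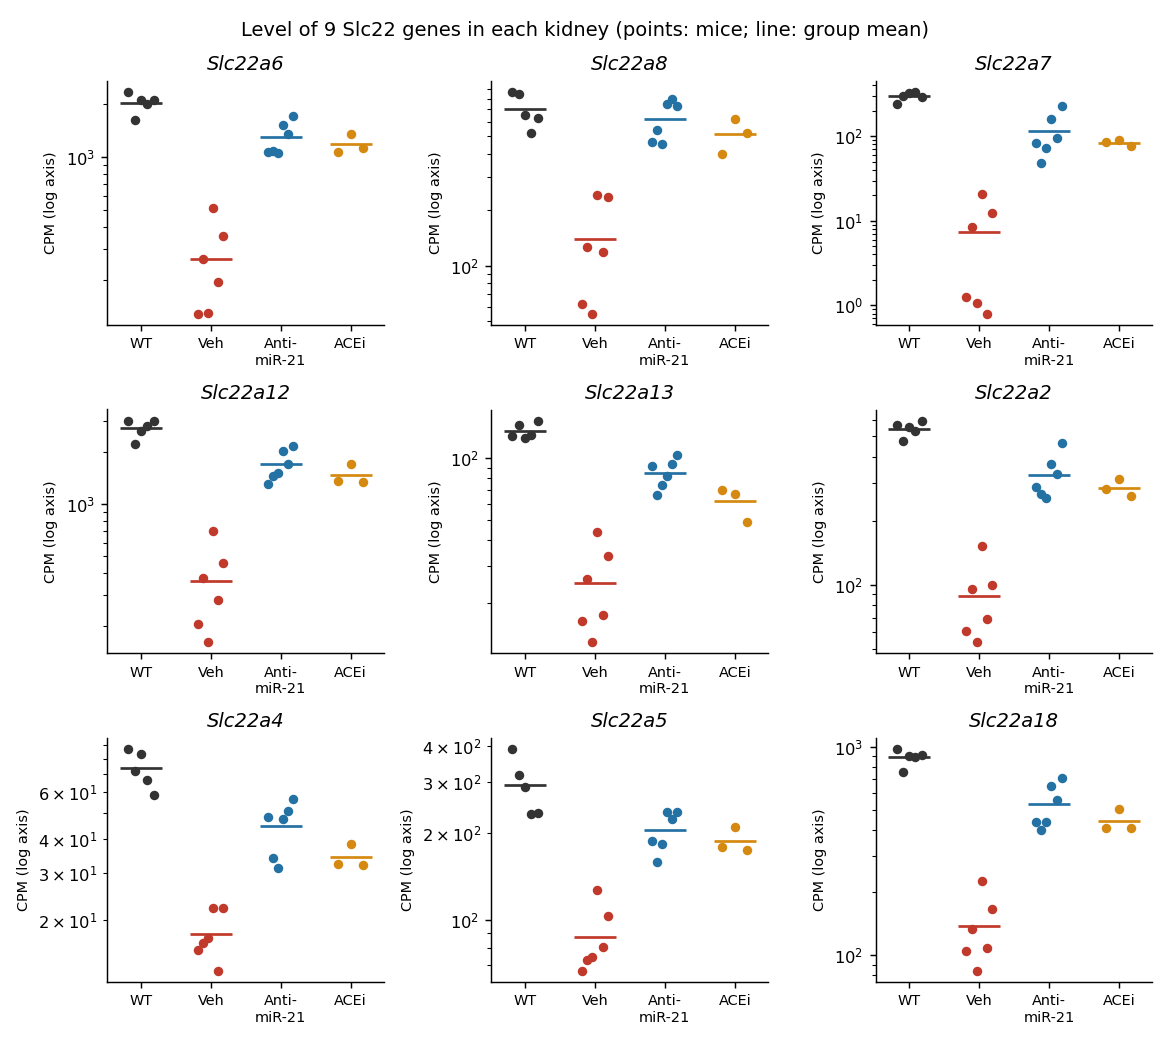
CPM (log axis) of the 9 genes in each of the 20 mice, with 1 panel per gene and a line at each group's mean. The Veh mice lie below every other mouse in each panel, and Slc22a7 spreads most within Veh, from 0.797 to 20.6 CPM.

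Among the organic anion carriers, Slc22a6 exchanges organic anions for dicarboxylates at the basolateral membrane and is the classical para-aminohippurate transporter. Its level in the 5 WT mice was 1622, 1984, 2092, 2106 and 2324 CPM. In Veh it ranged from 128.4 through a median of 228.7 to 508.6 CPM. All Veh mice were below all WT mice, and the log2 fold change was -2.94 ± 0.28 (7.69-fold lower, adjusted p = 1.1e-08). The anti-miR-21 mice ranged from 1053 through a median of 1214 to 1698 CPM, and the ACEi mice were at 1057, 1120 and 1351 CPM. Slc22a6 was thereby 4.91-fold higher under anti-miR-21 than in Veh (log2 2.30 ± 0.27, adjusted p = 6.6e-07) and 4.46-fold higher under ACEi (2.16 ± 0.30, adjusted p = 2.8e-05). All 3 ACEi mice and 5 of the 6 anti-miR-21 mice lay below the lowest WT mouse, and both differences from WT were just outside the threshold (anti-miR-21 -0.65 ± 0.27, adjusted p = 0.059, and ACEi -0.78 ± 0.34, adjusted p = 0.061). Both were called when only the 2 groups compared were fitted (adjusted p = 0.00247 and 0.000825), the first also without anti-miR-21 mouse A22, the highest of its group (adjusted p = 0.0404), and the second also with flow cell as a term (adjusted p = 0.026). Over the mice left out singly, adjusted p ran from 0.0404 to 0.119 for the first and from 0.0535 to 0.17 for the second.

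Slc22a8, the neighbour of Slc22a6, takes up larger organic anions and steroid conjugates at the same membrane. It was at 520.5, 627.2, 654.7, 851.5 and 866.7 CPM in WT, from 54.9 to 241.4 CPM (median 121.6) in Veh, from 455.4 to 794.7 CPM (median 636.2) under anti-miR-21 and at 398.8, 520.1 and 620.0 CPM under ACEi. The Veh mice stood apart from all others, while both treated groups overlapped WT. The log2 fold change was -2.34 ± 0.32 in Veh against WT (adjusted p = 1.4e-06), 2.16 ± 0.31 for anti-miR-21 against Veh (adjusted p = 6.3e-06) and 1.88 ± 0.35 for ACEi against Veh (adjusted p = 3.2e-04). It was the member nearest to WT after treatment, at -0.18 ± 0.31 for anti-miR-21 (adjusted p = 0.68) and -0.46 ± 0.38 for ACEi (adjusted p = 0.34), with no call in either.

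Slc22a7, a carrier of organic anions and nucleotides such as cyclic GMP, had the largest fold change of the members in Veh. WT mice were at 237.8, 288.4, 301.4, 322.9 and 333.1 CPM. Veh mice were at 0.797, 1.06, 1.27, 8.46, 12.2 and 20.6 CPM, of which the lowest stands for 29 counts. The Veh mice spread widely, with a coefficient of variation of 108%, yet all of them lay below WT. Slc22a7 thereby differed by -5.33 ± 0.65 (log2, 40.3-fold lower, adjusted p = 2.9e-07), and without Veh mouse A16, the highest, it was -5.96.

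The anti-miR-21 mice were at 47.8, 73.6, 83.7, 96.1, 161.9 and 229.9 CPM of Slc22a7, and the ACEi mice at 77.7, 85.9 and 89.6 CPM. Slc22a7 was 15.7-fold higher under anti-miR-21 than in Veh (log2 3.97 ± 0.61, adjusted p = 1.4e-05) and 11.4-fold higher under ACEi (3.52 ± 0.65, adjusted p = 3.1e-04), or 4.62 and 4.18 on the log2 scale without Veh mouse A16. No treated mouse reached the lowest WT mouse. Against WT the log2 fold change was -1.36 ± 0.55 under anti-miR-21, just outside the threshold (adjusted p = 0.053), and -1.81 ± 0.72 under ACEi, just inside it (adjusted p = 0.043). Without any 1 of the 8 ACEi and WT mice the second call was lost, with adjusted p between 0.0506 and 0.12. For the first, adjusted p ran from 0.0225 to 0.107 over the 11 mice left out singly. Among these fits it passed only without anti-miR-21 mouse A22, the highest of its group (-1.68, adjusted p = 0.0225). With all mice kept, it was also called with RLE scaling (-1.38, adjusted p = 0.0488). The fit of only the 2 groups compared called it as well (-1.37, adjusted p = 0.00334). The other settings did not, with adjusted p up to 0.125.

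Slc22a12 takes urate back from the tubule fluid and had the highest level per transcript length of the members. Its CPM were 2226, 2619, 2797, 2985 and 3015 in WT, from 160.9 to 700.3 (median 328.2) in Veh, from 1307 to 2160 (median 1603) under anti-miR-21 and 1343, 1361 and 1703 under ACEi. All treated mice lay between the highest Veh and the lowest WT mouse. The log2 fold change was -2.91 ± 0.28 in Veh against WT (adjusted p = 8.0e-09), 2.22 ± 0.26 for anti-miR-21 against Veh (adjusted p = 6.9e-07) and 2.02 ± 0.30 for ACEi against Veh (adjusted p = 3.8e-05). Against WT it was -0.69 ± 0.26 under anti-miR-21 (adjusted p = 0.038) and -0.89 ± 0.33 under ACEi (adjusted p = 0.030). The call against WT under anti-miR-21 was lost without WT mouse A3, A14, A17 or A18 or anti-miR-21 mouse A2, A8, A10 or A15, with adjusted p from 0.0541 to 0.0794, and under ACEi without WT mouse A3 or A18 or ACEi mouse A11 or A23, with adjusted p from 0.0503 to 0.102.

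Slc22a13, which exchanges urate and nicotinate, ranged from 124.4 to 151.8 CPM in WT and from 12.9 to 44.0 CPM in Veh. It ranged from 66.3 to 103.6 CPM under anti-miR-21 and was at 49.0, 66.9 and 70.2 CPM under ACEi. Both treated groups lay wholly between Veh and WT. The log2 fold change was -2.44 ± 0.23 in Veh against WT (adjusted p = 9.3e-09), 1.76 ± 0.22 for anti-miR-21 against Veh (adjusted p = 1.5e-06) and 1.31 ± 0.26 for ACEi against Veh (adjusted p = 5.3e-04). It remained lower than WT under anti-miR-21 (-0.67 ± 0.22, adjusted p = 0.020) and under ACEi (-1.13 ± 0.28, adjusted p = 0.0029).

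Slc22a2 brings organic cations such as creatinine and metformin into the tubule cell. It ranged from 473.0 to 593.4 CPM in WT, from 53.6 to 152.5 CPM in Veh and from 256.3 to 463.1 CPM under anti-miR-21, and was at 262.9, 281.0 and 314.9 CPM under ACEi. No Veh mouse reached a treated mouse and no treated mouse reached WT. The log2 fold change was -2.62 ± 0.21 in Veh against WT (adjusted p = 9.8e-10), 1.90 ± 0.20 for anti-miR-21 (adjusted p = 2.3e-07) and 1.70 ± 0.23 for ACEi (adjusted p = 2.3e-05) against Veh. Against WT it stayed lower, at -0.72 under anti-miR-21 and -0.92 under ACEi (log2, adjusted p = 0.0081 and 0.0060).

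Slc22a5, the carrier that recovers filtered carnitine at the apical membrane, fell least of the members. WT mice were at 233.1, 234.6, 288.0, 317.8 and 391.0 CPM and Veh mice at 66.8, 72.8, 74.6, 80.6, 102.9 and 127.4 CPM. This was a log2 fold change of -1.74 ± 0.17 (3.35-fold lower, adjusted p = 8.0e-09). The anti-miR-21 mice ranged from 158.9 to 237.5 CPM and the ACEi mice were at 175.2, 178.7 and 210.2 CPM, so that both treated groups lay above Veh and anti-miR-21 overlapped WT. Slc22a5 rose by 1.22 ± 0.16 under anti-miR-21 (adjusted p = 1.9e-06) and by 1.10 ± 0.19 under ACEi (adjusted p = 1.2e-04) against Veh and was lower than WT, at -0.52 and -0.64 (log2, adjusted p = 0.014 and 0.013). The call against WT was lost under anti-miR-21 without WT mouse A3 (adjusted p = 0.0642) and under ACEi without mouse A11 or A23 (adjusted p = 0.0533 and 0.0585).

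Slc22a4, its neighbour, ranged from 58.6 to 86.9 CPM in WT, from 12.9 to 22.2 CPM in Veh and from 31.4 to 56.7 CPM under anti-miR-21, and was at 32.1, 32.2 and 38.4 CPM under ACEi. The 3 ranges of WT, treated and Veh mice did not overlap. Slc22a4 differed by -2.06 ± 0.16 (log2) in Veh against WT (adjusted p = 4.8e-10), 1.34 ± 0.15 for anti-miR-21 against Veh (adjusted p = 4.3e-07) and 0.95 ± 0.18 for ACEi against Veh (adjusted p = 3.8e-04). Slc22a18 ranged from 760.2 to 975.8 CPM in WT, from 84.3 to 227.1 CPM in Veh, from 398.6 to 707.2 CPM under anti-miR-21 and from 406.8 to 500.6 CPM under ACEi. It differed by -2.69 ± 0.21 between Veh and WT (log2, adjusted p = 4.7e-10) and rose against Veh by 1.95 ± 0.20 under anti-miR-21 and 1.67 ± 0.23 under ACEi (adjusted p = 1.4e-07 and 2.1e-05). Both genes stayed lower than WT after treatment, Slc22a4 at -0.72 ± 0.16 and -1.10 ± 0.20 and Slc22a18 at -0.74 ± 0.20 and -1.02 ± 0.25 (anti-miR-21 and ACEi, adjusted p from 1.3e-04 to 0.0055).

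Against WT, 6 of 9 members were thus called lower under anti-miR-21, beside 19.8% of all genes, and 7 of 9 under ACEi, beside 22.5% of all genes. These calls depended on the processing. With library totals alone, or on the FPKM values, 3 and 4 members were called. Over all alternative settings the counts ran from 3 to 8 and from 4 to 8. In the direct comparison of both treatments 0 of 9 members were called by edgeR, and 0 by DESeq2, with 1 of 9 (Slc22a4) at an unadjusted p under 0.05. The estimates were 0.12 to 0.45 higher under anti-miR-21 (log2, median 0.28) with adjusted p from 0.34 to 0.88, and the group ranges overlapped for 9 of 9 members. Of all genes 0.584% were called in either direction, and the ACEi group held 3 mice.

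**Figure D2:**
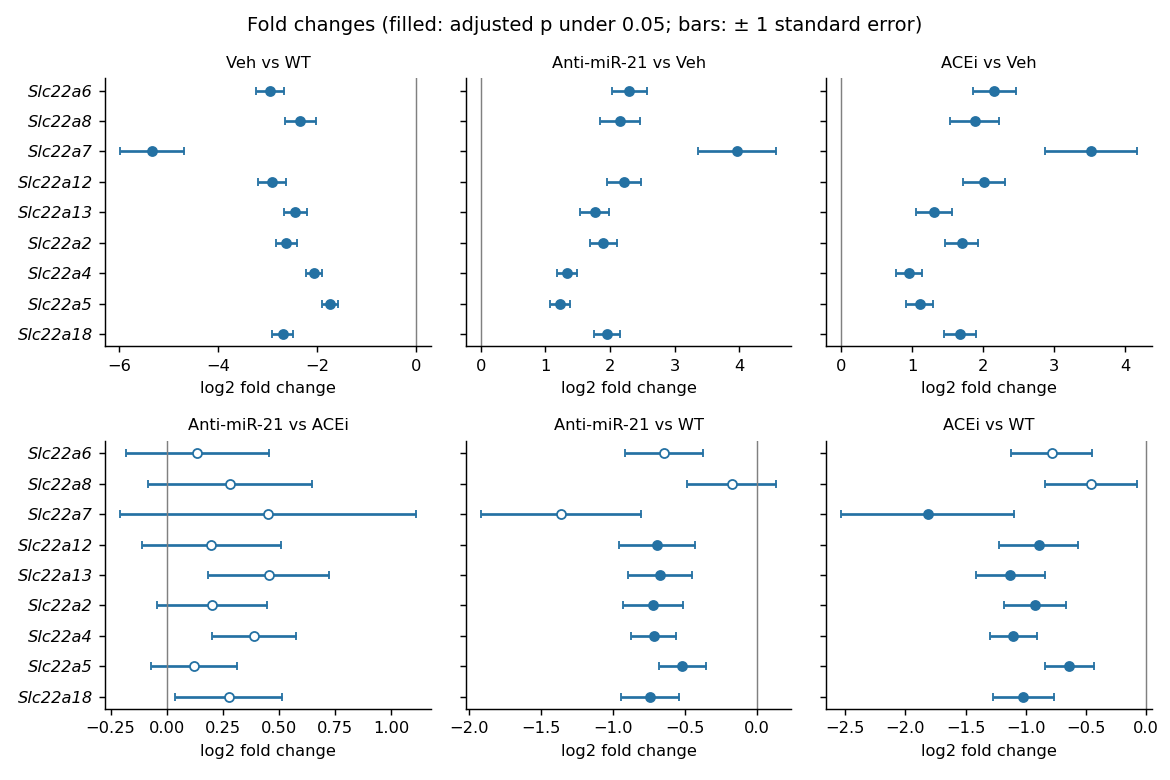
Log2 fold changes of the 9 genes in the 6 comparisons (filled points, adjusted p under 0.05; open points, not called; bars, ± 1 standard error). All points of Veh against WT lie below 0 and all points of the treated groups against Veh lie above 0, and in the comparison of anti-miR-21 with ACEi 9 of 9 points are open.

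Among the knockout mice, most members shared the same highest mouse of a group. In Veh, mouse A16 was the highest for 8 of 9 members and mouse A9 the lowest for 5. Under anti-miR-21 mouse A22 was the highest for 8 of 9, and under ACEi mouse A13 was the highest for 8 of 9. In WT this was less so, as mouse A3 was the highest for 6 members and the lowest for Slc22a7, and mouse A6 was the lowest for 4 members but the second highest for Slc22a8 and Slc22a13. Over all 20 mice Pearson's r of log2 CPM ranged from 0.881 to 0.997 over the 36 pairs of members, with a median of 0.965, a description over mice of all 4 groups together that was not computed within groups. The coefficient of variation within Veh was 108% for Slc22a7, 58.5% for Slc22a8 and 56.2% for Slc22a6, and 26.5% for Slc22a5 and 21.1% for Slc22a4.

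The libraries were run on 2 flow cells, and in Veh the 2 mice of flow cell B, A16 and A20, lay above the 4 mice of flow cell A for 9 of 9 members, as they did for 14.5% of all genes tested. In WT flow cell B lay above for 0 and below for 3 members (11.7% and 15.6% of all genes), under anti-miR-21 its 1 mouse lay above for 0 and below for 4 (12.7% and 11.4%), and under ACEi its 2 mice lay above for 6 and below for 0 (33.9% and 32.7%). Within flow cell A alone (3 WT, 4 Veh and 5 anti-miR-21 mice) 9 of 9 members were lower in Veh than in WT, with log2 fold changes of -2.16 (Slc22a5) to -6.62 (Slc22a7), and 9 of 9 were higher under anti-miR-21 than in Veh, by 1.51 to 5.43. With flow cell as a term the counts of members called in the comparisons with Veh were also 9 of 9 each. Against WT, the call of Slc22a12 under anti-miR-21 was lost with this term (-0.58, adjusted p = 0.0634) and within flow cell A (adjusted p = 0.0788), and Slc22a6 became called under ACEi with the term (-0.90, adjusted p = 0.026). The ACEi group had 1 mouse on flow cell A, so no such value was computed for it.

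Levels per length were compared with the deposited FPKM. In WT the order of mean FPKM was Slc22a12 at 1001, Slc22a18 at 475.9, Slc22a6 at 414.0, Slc22a2 at 210, Slc22a8 at 175.2, Slc22a7 at 122.4, Slc22a5 at 77.6, Slc22a13 at 55.9 and Slc22a4 at 26.5. In this order the neighbours Slc22a18 and Slc22a6, and each neighbouring pair from Slc22a2 through to Slc22a13, overlapped in their ranges over the 5 WT mice. The FPKM entry of Slc22a12 is marked by the authors as confounded with another gene. In Veh, Slc22a7 was last at 4.46 ± 4.64 FPKM (SD, n = 6), below Slc22a4 at 9.60 ± 1.81, although their ranges overlapped. Of the summed FPKM of the 9 members, Slc22a7 made up 4.81% ± 0.868 in WT, 0.635% ± 0.502 in Veh, 2.79% ± 1.05 under anti-miR-21 and 2.53% ± 0.232 under ACEi. Slc22a5 made up 3.05% ± 0.664, 6.91% ± 1.95, 3.43% ± 0.308 and 3.64% ± 0.109 in the same groups, and Slc22a12 held the largest part in each, from 34.7% in Veh to 39.2% under ACEi.

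**Figure D3:**
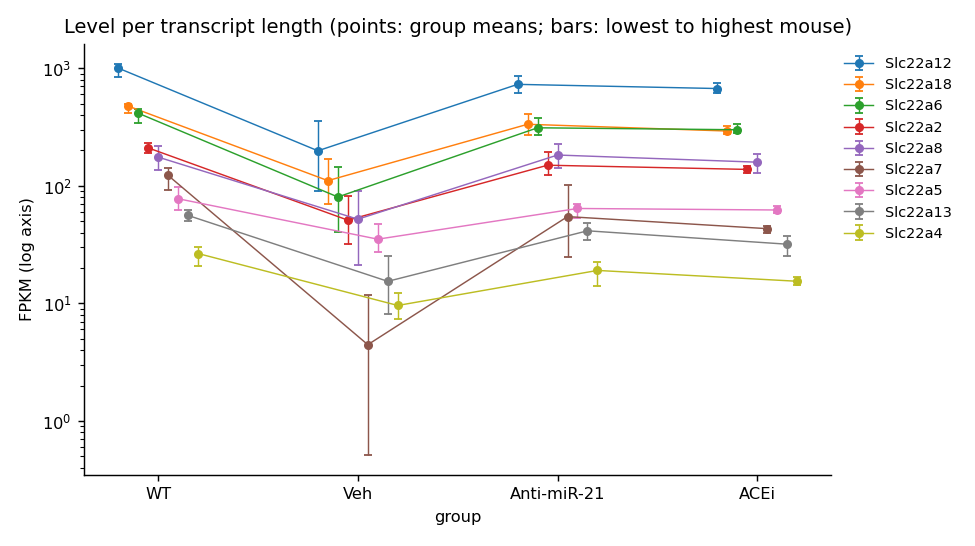
Mean FPKM (log axis) of the 9 genes in the 4 groups, with bars from the lowest to the highest mouse. Slc22a12 is the highest and Slc22a4 the lowest in WT, and Slc22a7 drops from 122.4 to 4.46 FPKM in Veh, below Slc22a4.

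Markers of the proximal tubule moved in the same direction as the members, and so did markers of some other cells. Of 8 general markers (Slc34a1, Lrp2, Cubn, Miox, Fbp1, Aqp1, Gatm and Slc5a2) 8 fell in Veh, with a median log2 fold change of -2.16, and 8 rose under each treatment against Veh, with medians of 1.69 for anti-miR-21 and 1.41 for ACEi. Their summed level was 14365 to 18513 CPM in WT, 1867 to 5175 CPM in Veh, 8483 to 13598 CPM under anti-miR-21 and 8406 to 10933 CPM under ACEi. Of 4 markers of the last, S3 segment 4 fell in Veh (median -2.69). The tubule injury markers rose in 5 of 5, macrophage markers in 6 of 6 and fibroblast markers in 5 of 5, with summed levels of 835.9 to 1352, 945.7 to 1204 and 2634 to 3370 CPM in Veh against 23.2 to 35.4, 145.9 to 162.7 and 141.0 to 339.6 CPM in WT. Defining injury markers were at 17.3 CPM (Havcr1, KIM-1) and 3.67 CPM (Lcn2, NGAL) in WT and 231.9 and 455.9 CPM in Veh. Against Veh, the injury markers fell in 4 of 5 under anti-miR-21 and 1 of 5 under ACEi, the macrophage markers in 6 of 6 under both and the fibroblast markers in 4 and 3 of 5. T cell markers rose in 5 of 5 in Veh (median 3.62) and fell in 4 of 5 under anti-miR-21 and 0 of 5 under ACEi, and adipocyte markers rose in 4 of 5 in Veh. In the direct comparison of anti-miR-21 with ACEi, which held 3 mice, 0 of 5 T cell and 0 of 5 injury markers were called. Erythroid markers fell in 5 of 5 in Veh (median -4.20) and rose in 4 of 5 under each treatment (medians 3.11 and 2.04), with summed levels of 817.8 to 4806 CPM in WT, 41.2 to 317.5 in Veh, 581.4 to 1127 under anti-miR-21 and 297.4 to 575.4 under ACEi. Of later tubule segments, thick ascending limb markers fell in 3 of 4 and rose in 1 in Veh (median -1.00355), distal tubule markers fell in 3 of 4 and rose in 1 (median -1.66) and collecting duct markers fell in 4 of 5 (median -0.97). Against Veh, thick ascending limb markers rose in 3 and fell in 1 of 4 under anti-miR-21 and rose in 1 of 4 under ACEi. Distal tubule markers rose in 3 of 4 under each treatment and fell in 1 under ACEi. Collecting duct markers rose in 4 of 5 under each treatment. Podocyte markers rose in 3 of 4 in Veh, and endothelial markers rose in 2 and fell in 1 of 5 (medians 0.30 and 0.40). Against Veh, podocyte markers rose in 3 and fell in 1 of 4 under anti-miR-21 and rose in 2 of 4 under ACEi. Endothelial markers rose in 1 of 5 under each treatment. The share of these other cell types in the members' change was not tested.

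To see how the members moved beside the tubule they belong to, each was set against the mean log2 CPM of the 8 proximal tubule markers in the same mouse, a measure chosen after the data were seen. The differences between groups carry unadjusted p-values of exact two-sided permutation tests over mice, of which 54 were made, and those that did not hold after adjustment over the 54 are named. Relative to the markers and to the WT mean, Slc22a7 lay at -6.13 to -2.36 (log2) in the 6 Veh mice, and no Veh mouse reached WT (difference -4.03, exact p = 0.00216, the smallest this design allows). Slc22a6 differed by -0.86 and Slc22a12 by -0.82 between Veh and WT (exact permutation p = 0.00433 for both), Slc22a18 by -0.51 (exact p = 0.00433) and Slc22a2 by -0.45 (exact p = 0.0108). These 5 genes were lower in Veh relative to the mean of the markers, and of them only Slc22a7 had no overlap between Veh and WT mice. The 8 markers themselves spread from -2.87 to -1.35 (log2) in Veh against WT, and the 4 S3 markers from -4.59 to -1.88. Of the 5 genes, Slc22a2 (-2.62) and Slc22a18 (-2.69) lay within the range of the 8 markers. Only Slc22a7 (-5.33) lay below that of the S3 markers.

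The carnitine carrier went the other way on this scale. Slc22a5 was 0.51 higher relative to the markers in Veh than in WT (exact permutation p = 0.0108), with Veh mice at 0.27 to 0.96 and WT mice at -0.22 to 0.31 around the WT mean, ranges that overlap. Slc22a4 differed by 0.20 (exact p = 0.372), Slc22a8 by -0.28 (exact p = 0.203) and Slc22a13 by -0.30 (exact p = 0.0519), none of which passed 0.05. Against Veh, Slc22a7 was 3.05, Slc22a6 0.76 and Slc22a12 0.67 higher relative to the markers under anti-miR-21 (exact p = 0.00216 for each), while Slc22a5 differed by -0.45 (exact p = 0.00216). Under ACEi these differences were 2.99, 0.84, 0.69 and -0.36 (exact p = 0.0238, 0.0119, 0.0119 and 0.0595). Slc22a8, Slc22a18 and Slc22a2 were also higher under anti-miR-21 than in Veh, by 0.66, 0.30 and 0.27 (exact permutation p = 0.00866, 0.00216 and 0.00649). Slc22a18 was 0.25 higher under ACEi than in Veh (exact permutation p = 0.0119). Against WT, Slc22a7 was at -0.98 relative to the markers under anti-miR-21 (exact p = 0.0173) and at -1.04 under ACEi (exact p = 0.0179, the smallest this design allows), and Slc22a8 was at 0.38 under anti-miR-21 (exact p = 0.0195) and 0.31 under ACEi (exact p = 0.125). None of these differences from WT passed adjustment (exact permutation, adjusted p = 0.0508 for both of Slc22a7 and 0.0526 for Slc22a8 under anti-miR-21), nor did that of Slc22a7 between ACEi and Veh (adjusted p = 0.0612). Between ACEi and Veh, Slc22a2 (0.29) and Slc22a4 (-0.52) did not hold either (exact permutation p = 0.0357 and 0.0476, adjusted p = 0.0877 and 0.112). Between anti-miR-21 and ACEi only Slc22a5 passed 0.05, at -0.0889 (exact permutation p = 0.0119, the smallest this design allows, adjusted p = 0.0378).

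**Figure D4:**
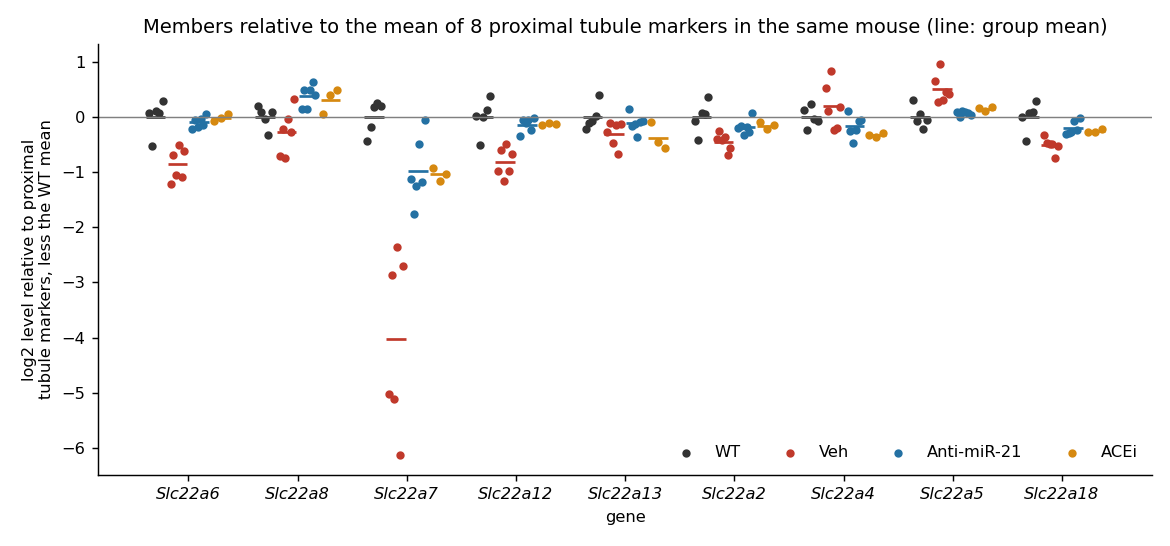
Log2 level of each member relative to the mean of 8 proximal tubule markers in the same mouse, less the WT mean, for all 20 mice (points) with group means (lines). In Veh, Slc22a7 lies at -6.13 to -2.36 and Slc22a5 at 0.27 to 0.96.

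Pairs of neighbouring genes were compared as a log2 ratio of CPM within each mouse. The ratio of Slc22a8 to Slc22a6 was -1.54 ± 0.39 (SD, n = 5) in WT and -0.96 ± 0.24 (n = 6) in Veh (difference 0.58, exact two-sided permutation p = 0.0195, adjusted p = 0.156 over 8 ratio comparisons). The WT mice were at -1.93, -1.74, -1.69, -1.42 and -0.93, and only WT mouse A6 fell within the range of Veh, -1.24 to -0.60. Without that mouse the difference was 0.74 (exact permutation, adjusted p = 0.0381). Leaving it out removes the overlap of the groups by construction, so this value adds no support. The ratio of Slc22a5 to Slc22a4 was 1.98 ± 0.18 in WT and 2.29 ± 0.23 in Veh (difference 0.31, exact permutation p = 0.0411, adjusted p = 0.165). The other 6 ratio comparisons, of the treated groups with Veh and with each other, had exact permutation p-values from 0.0952 to 0.519.

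The count table held 16 other Slc22 genes, of which 13 passed the filter, and in Veh 9 of these fell, 2 rose and 2 were not called against WT. The genes that fell by more than 3 on the log2 scale, Slc22a19, Slc22a22, Slc22a26, Slc22a28 and Slc22a30, are organic anion carriers of rodents. Slc22a30 fell from 300.3 ± 38.5 to 17.1 ± 14.2 CPM (-4.14 ± 0.45, adjusted p = 5.1e-08) and Slc22a26 from 33.0 ± 6.44 to 1.77 ± 1.82 CPM (-4.24 ± 0.39, adjusted p = 5.7e-09). Slc22a29, near the floor at 1.77 ± 0.867 CPM in WT and 0.459 ± 0.251 CPM in Veh, differed by -1.94 (log2, adjusted p = 6e-05). Slc22a23 and Slc22a17, the last a receptor for lipocalin, differed by -0.81 and -0.43 (log2, adjusted p = 2.9e-05 and 6.5e-05). The last 2 depended on the scaling, since with library totals alone Slc22a17 was at 0.16 (adjusted p = 0.081) and Slc22a23 at -0.23 (adjusted p = 0.13), and on log2(FPKM + 1) Slc22a17 was at 0.19 (adjusted p = 0.03) and Slc22a23 at -0.18 (adjusted p = 0.23).

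The genes that rose in Veh were Slc22a15, from 1.99 ± 0.833 to 8.83 ± 0.854 CPM (2.14 ± 0.21, adjusted p = 1.0e-08), and Slc22a21, from 3.71 ± 0.619 to 6.78 ± 1.11 CPM (0.87 ± 0.14, adjusted p = 1.6e-05). Slc22a21 lies between Slc22a4 and Slc22a5 and is closely related to them, so its counts are uncertain where reads match several copies. Under anti-miR-21, 8 of the 13 rose, 2 fell (Slc22a15 and Slc22a21) and 3 were not called against Veh. Under ACEi, 8 rose, 3 fell (Slc22a3, Slc22a15 and Slc22a21) and 2 were not called. The call of Slc22a3 rests on a level near the floor, 0.619 ± 0.170 CPM under ACEi. Slc22a3, the extraneuronal monoamine carrier, was at 0.990 ± 0.354 CPM in WT and 1.37 ± 0.603 CPM in Veh (adjusted p = 0.15), and Slc22a14 at 0.482 ± 0.233 and 0.290 ± 0.113 CPM (adjusted p = 0.11). With library totals alone, 3 of the 13 rose, 7 fell and 3 were not called in Veh, with Slc22a3 then called higher (1.05, adjusted p = 0.003), and 7 rose, 4 fell and 2 were not called under either treatment against Veh. Slc22a17 and Slc22a3 were then among those lower than Veh under anti-miR-21 (-0.32 and -0.71, adjusted p = 0.0011 and 0.028) and Slc22a23 was not called (0.10, adjusted p = 0.48). The genes under the filter were Slc22a16 (0 counts in all libraries), Slc22a20 (1 count in 1 library) and Slc22a27 (at most 13.8 counts).

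**Figure D5:**
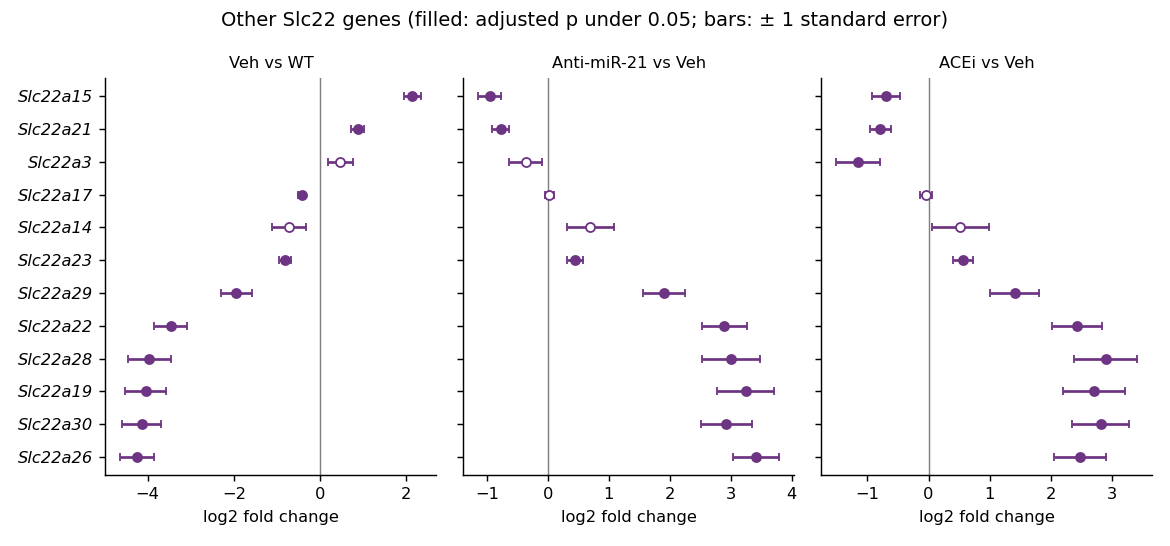
Log2 fold changes of 12 other Slc22 genes that passed the filter, for Veh against WT and each treatment against Veh (filled points, adjusted p under 0.05; bars, ± 1 standard error). In Veh, the filled points above 0 are Slc22a15 and Slc22a21, and Slc22a26 lies lowest at -4.24.

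Organic ions taken up from blood by the basolateral members leave the cell through apical carriers, and of 9 such genes 5 fell, 2 rose and 2 were not called in Veh (median log2 fold change -1.37). The proton antiporter Slc47a1 (MATE1), which releases cations brought in by Slc22a2, fell from 930.2 ± 69.7 to 241.6 ± 48.9 CPM (-1.94 ± 0.13, adjusted p = 4.9e-11), and Slc17a3, an apical anion and urate carrier, from 905.3 ± 73.6 to 123.2 ± 62.7 CPM (-2.88 ± 0.25, adjusted p = 2.5e-09). Against the rest, the efflux pumps Abcc4 (MRP4) and Abcb1a rose, Abcc4 from 26.6 ± 6.46 to 57.8 ± 8.41 CPM (1.12 ± 0.15, adjusted p = 8.1e-07) and Abcb1a from 3.84 ± 0.976 to 6.19 ± 0.534 CPM (0.69 ± 0.15, adjusted p = 3.0e-04). Under anti-miR-21 5 of the 9 rose, 1 fell and 3 were not called against Veh (median 1.002), and under ACEi 5 rose, 0 fell and 4 were not called (median 0.98). Abcc4 differed by -0.61 ± 0.14 under anti-miR-21 (adjusted p = 7.5e-04), while under ACEi its log2 fold change was -0.41 ± 0.17 (adjusted p = 0.057).

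Slc22a6 and Slc22a8 are driven by dicarboxylates, which the sodium gradient holds in the cell, and 5 of 5 genes for this gradient fell in Veh (median -1.53) and 5 of 5 rose under each treatment against Veh (medians 1.02 and 0.74). Atp1b1, the beta subunit of the sodium pump, went from 2787 ± 225 CPM in WT to 1290 ± 248 CPM in Veh (-1.11 ± 0.11, adjusted p = 1.7e-08). Of 5 genes of PDZ scaffolds, proteins that hold apical carriers in place, or of their partners, 4 fell in Veh and 1 was not called (median -1.37). Pdzk1 fell from 1455 ± 113 to 288.8 ± 98.3 CPM (-2.33 ± 0.17, adjusted p = 2.0e-10), and Pdzk1ip1, a partner of Pdzk1, from 463.5 ± 53.7 to 249.6 ± 32.5 CPM (-0.89 ± 0.11, adjusted p = 3.8e-07). Slc9a3r2, named after its values were seen, was at 68.3 ± 5.65 and 71.7 ± 6.07 CPM (adjusted p = 0.39), and was called higher in Veh with library totals alone. Under anti-miR-21 5 of the 5 listed genes rose and under ACEi 4 rose (medians 0.92 and 0.69).

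Of 7 transcription factors known to act on Slc22 genes or the proximal tubule, 6 fell in Veh and 1 was not called (median -1.20). Hnf4a fell from 826.0 ± 89.1 to 244.7 ± 52.9 CPM (-1.75 ± 0.13, adjusted p = 3.3e-10). The gene not called was Bcl6, named after its values were seen, at 37.4 ± 16.4 and 36.8 ± 13.7 CPM (adjusted p = 0.96). Against Veh, 4 of 7 rose under anti-miR-21 and 5 of 7 under ACEi, with medians of 0.86 and 0.79. Of 6 tested genes of carnitine synthesis and the carnitine shuttle, which use the carnitine that Slc22a5 carries, 6 fell in Veh (median -1.20) and 6 rose under each treatment (medians 1.07 and 0.91). Aldh9a1, an enzyme of carnitine synthesis, went from 589.0 ± 73.0 to 128.5 ± 36.5 CPM (-2.20 ± 0.17, adjusted p = 3.5e-10), and Cpt1a, the carnitine palmitoyltransferase of the outer mitochondrial membrane, from 412.2 ± 61.6 to 196.5 ± 31.7 CPM (-1.07 ± 0.11, adjusted p = 3.0e-08).

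Of 7 genes of urate handling, of which 3 (Slc17a1, Slc17a3 and Abcg2) are also among the apical carriers above, 6 fell and 1 rose in Veh (median -1.56). Xdh, the enzyme that makes urate, rose from 13.95 ± 3.55 to 45.2 ± 9.36 CPM (1.69 ± 0.17, adjusted p = 2.3e-08), opposite to the urate carriers Slc22a12 and Slc17a3. Against Veh, 6 rose and Xdh fell under both treatments, at -0.56 ± 0.16 under anti-miR-21 (adjusted p = 0.0043) and -0.52 ± 0.19 under ACEi (adjusted p = 0.036). Slc17a1 went from 811.9 ± 62.3 CPM in WT to 172.1 ± 65.1 CPM in Veh (-2.24 ± 0.18, adjusted p = 1.1e-09).

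Across the 20 mice, the genes whose log2 CPM followed each member most closely were ranked by Pearson's r, as a description over mice in 4 groups. The pair Slc22a6 and Slc22a12 were near the top of each other's lists (r = 0.997), each beside Hgd, an enzyme of tyrosine breakdown (r = 0.999 and 0.997), followed by Fbp1 for Slc22a6 (r = 0.996) and by Slc17a3 for Slc22a12 (r = 0.997). Slc22a2 and Slc22a18 shared Chpt1 and Ggt1 (r from 0.997 to 0.998), with Slc22a18 itself also among the closest to Slc22a2 and Scp2 to Slc22a18. Slc22a7 was followed by Akr1c14, Mpv17l and Aadat (r = 0.993, 0.991 and 0.989) and Slc22a8 by Agxt2, Miox and Slc22a22 (r = 0.987, 0.985 and 0.985). Slc22a5 was followed by Acad11 and Fech (r = 0.992 and 0.991), Slc22a4 by Pink1, Aldh1l1 and Cndp1 (r = 0.988, 0.986 and 0.986), and Slc22a13 by Egf, Slc23a1 and Gcgr (r = 0.996, 0.990 and 0.990).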

How the data were processed

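Paired-end RNA-seq of whole kidney was analysed for 20 mice, grouped by the labels. Reads were placed on GRCm38 by the authors with OmicSoft software, and the deposited table holds an expected count for each of 47069 Ensembl genes, not scaled between libraries. Of the positive values 29.1% were not exactly whole, and all were rounded for testing. The authors also deposited FPKM for 33368 entries and a library table with counts of alignments, whose ramipril dose (4 mg/kg) differs from the labels. FPKM columns of 3 further libraries were not used.

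Low genes were removed with filterByExpr (minimum count 10, minimum total 15). Libraries were scaled by TMM, with factors of 0.771 to 0.850 in WT, 1.12 to 1.26 in Veh, 0.881 to 1.04 under anti-miR-21 and 0.976 to 1.05 under ACEi. The quasi-likelihood model of edgeR 4.0.16 (R 4.3.3) held 1 coefficient for each group, used all 20 mice, and p-values were adjusted by Benjamini-Hochberg (threshold 0.05). Log2 levels were computed with prior count 2. Ratios and levels relative to markers were compared with exact two-sided permutation tests over mice. Alternatives were DESeq2 1.42.0, limma 3.58.1 on FPKM, other scalings and filters, flow cell as a term or flow cell A alone, fits of 2 groups, and omission of single mice. Scripts were tested on simulated data. Nothing in the labels ties mice to litters, and mouse names pair no mice across groups.

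The 9 genes and all gene lists (apical efflux, sodium gradient, PDZ scaffolds, transcription factors, carnitine, urate and cell type markers) were chosen with earlier results of these data known. Genes named were the members, every other tested Slc22 gene, for each list the 2 with the highest mean CPM and those that changed against the rest, the 3 closest to each member, and Col4a3. A few genes that this rule names are not reported here, although counts and medians include them. Figures were drawn with Python 3.11.15 and matplotlib 3.10.9.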

Additional observations from a re-analysis of the deposited data

How the results depend on the processing

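In the comparisons of Veh with WT and of each treatment with Veh, 9 of 9 members were called under each other test, scaling, filter and left-out mouse that was run. Between anti-miR-21 and ACEi 0 of 9 were called under each of these. Levels relative to markers are not covered by these counts and are given below. The calls against WT were less stable. Over the other tests, scalings, filters and fits they ran from 3 to 8 members under anti-miR-21 and from 4 to 8 under ACEi. With library totals alone, and with log2(FPKM + 1) or log2(FPKM + 0.1), 3 members were called under anti-miR-21 and 4 under ACEi, and Slc22a8 under anti-miR-21 then lay above WT by 0.0548, 0.0597 and 0.0600. Leaving out single mice gave 4 to 8 members under anti-miR-21 and 4 to 6 under ACEi. Library totals alone moved the median over all tested genes to 0.65 (log2) in Veh against WT, -0.38 and -0.32 in the treated groups against Veh, and 0.26 and 0.31 in the treated groups against WT. The share of higher among all calls then went from 53.4% to 81.2% in Veh against WT, from 48.6% to 20% and from 52.4% to 20.5% in the treated groups against Veh and from 54.6% to 88.6% and from 52.7% to 85.6% against WT. With upper-quartile scaling it was 41.5% for ACEi against Veh, and with log2(FPKM + 1) 82%, 19.1% and 19% in the comparisons with Veh. Over the gene lists, library totals alone changed the counts in 45 of 72 list comparisons. Against Veh, collecting duct markers then rose in 2 of 5 under either treatment, injury markers fell in 3 of 5 and fibroblast markers in 5 of 5 under ACEi, thick ascending limb markers rose in 0 and fell in 1 of 4 under ACEi, and 4 of 6 carnitine and 4 of 7 urate genes rose under ACEi and anti-miR-21, respectively. In Veh, 4 of 6 carnitine genes, 2 of 4 thick ascending limb and 4 of 5 erythroid markers fell, and 1 erythroid marker rose. The cause of these shifts was not tested.

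Relative to the proximal tubule markers the sign changed for Slc22a4 and Slc22a5 in Veh against WT (0.20 and 0.51), under anti-miR-21 against Veh (-0.36 and -0.45) and under ACEi against Veh (-0.52 and -0.36), and for Slc22a13 under ACEi against Veh (-0.0730). Between anti-miR-21 and ACEi it changed for Slc22a2 (-0.0246), Slc22a5 (-0.0889), Slc22a6 (-0.0804) and Slc22a12 (-0.0146), and against WT for Slc22a5 and Slc22a8 under anti-miR-21 (0.0601 and 0.379) and under ACEi (0.15 and 0.31). Between the treatments only Slc22a5 passed adjustment on this scale (exact permutation, adjusted p = 0.0378). The other members had adjusted p from 0.214 to 0.934. That measure has the markers' own change taken out by its construction. The log2 ratio of Slc22a8 to Slc22a6 between Veh and WT ranged from 0.485 to 0.735 over the mice left out. It passed the adjusted threshold only without WT mouse A6, whose omission removes the overlap of the groups by construction. Within flow cell A it was 0.33 (exact permutation, adjusted p = 0.724). No paired analysis was possible because mouse names are unique to a group.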
